A study of Homo sapiens with 6 samples.

Results

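HCCLM3 is a human hepatocellular carcinoma line of the MHCC97 lineage, selected in mice for spread to the lung. The study transfected it with antisense oligonucleotides (ASO), short synthetic strands that bind a chosen RNA, and set a Control ASO against an ASO to SCARNA13, a small RNA of the Cajal body. The values below describe only the cells that received the Control ASO, that is, the 3 libraries titled Control ASO of the 6 libraries in the series, and the other 3 libraries enter no value. They give what these cells expressed: the most abundant genes, the genes of the liver lineage, those tied to invasion, the receptors and the secreted factors. The labels name the cell line and the transfection, and state neither the sequence of the Control ASO, its dose or the time of harvest, nor whether the 3 replicates were separate cultures. The spread between them may therefore be technical. All cells had been transfected, so the values are those of transfected cells and no untreated library was used.

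Hepatocytes are the secretory epithelial cells of the liver. A small circuit of transcription factors, among them HNF4A, the FOXA proteins and the C/EBP proteins, keeps on the genes for plasma proteins, bile acid synthesis, urea synthesis and drug metabolism. Hepatocellular carcinomas lose this programme to varying degrees, often switch fetal genes such as AFP and GPC3 back on, and at the poorly differentiated end carry keratins of the bile duct and structural proteins of mesenchymal cells. Levels are given as FPKM, a fragment count scaled by gene length and by library size, which lets genes be compared. Values in 3 libraries are listed in the order replicate 1, 2 and 3. A gene was counted as expressed at a mean of at least 1 FPKM, as well expressed at 10 FPKM or more, and as near silent under 0.1 FPKM.

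The label was checked first against the defining markers of a hepatocyte. ALB (albumin, ENSG00000163631, chromosome 4, 73397114 to 73421412, plus strand, GRCh38), the main plasma protein made by the liver, had 0 reads in every library, which allows a level of up to 0.0127 FPKM (3 reads over the 3 libraries, counting error only). HNF4A, a central factor of that circuit, had 0, 4 and 0 reads. AFP, the fetal albumin that cells of the MHCC97 lineage are known to secrete, read 0.0706, 0.0807 and 0.0234 FPKM, from 7, 7 and 1 reads. Against these absences, the simple epithelial keratins KRT8 and KRT18 and the intermediate filament VIM were all above 300 FPKM. These markers go against a hepatocyte identity for the cells labelled HCCLM3. No genotype was used here, and the identity of the line was not tested.

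The promoters of the silent and the abundant genes are shown to let the contrast be read in sequence. Below are the 250 bases before the annotated start of ALB and AFP, the textbook hepatocyte and fetal liver genes, and of FTL and TMSB10, the most abundant protein-coding genes of the nuclear genome here, 5′ to 3′ on the strand of the gene, from RefSeq on GRCh38.p14. Capitals mark each CG dinucleotide, the site of DNA methylation in vertebrates.
ALB, chr4:73404037-73404286, plus strand: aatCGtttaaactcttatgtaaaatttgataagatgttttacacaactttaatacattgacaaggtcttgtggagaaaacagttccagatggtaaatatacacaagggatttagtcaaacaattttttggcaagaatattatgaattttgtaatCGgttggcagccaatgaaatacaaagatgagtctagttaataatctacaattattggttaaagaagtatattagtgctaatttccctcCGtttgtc
AFP, chr4:73435971-73436220, plus strand: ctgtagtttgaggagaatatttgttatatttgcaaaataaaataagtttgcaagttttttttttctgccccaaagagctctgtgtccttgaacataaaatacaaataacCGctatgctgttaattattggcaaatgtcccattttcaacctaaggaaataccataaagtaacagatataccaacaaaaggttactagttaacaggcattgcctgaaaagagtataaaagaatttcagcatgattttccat
FTL, chr19:48965059-48965308, plus strand: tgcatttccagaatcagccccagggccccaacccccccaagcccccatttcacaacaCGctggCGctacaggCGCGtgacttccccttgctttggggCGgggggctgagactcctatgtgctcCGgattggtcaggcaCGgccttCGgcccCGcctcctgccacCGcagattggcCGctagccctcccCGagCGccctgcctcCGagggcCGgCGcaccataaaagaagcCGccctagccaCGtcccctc
TMSB10, chr2:84905406-84905655, plus strand: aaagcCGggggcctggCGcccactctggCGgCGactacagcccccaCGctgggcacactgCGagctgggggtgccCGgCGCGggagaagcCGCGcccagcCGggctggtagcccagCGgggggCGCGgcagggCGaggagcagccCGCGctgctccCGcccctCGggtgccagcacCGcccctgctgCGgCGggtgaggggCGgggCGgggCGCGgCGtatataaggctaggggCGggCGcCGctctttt
The ALB and AFP windows held 3 and 1 CG, and the FTL and TMSB10 windows 18 and 31. Over all 14688 protein-coding genes with a promoter in the RefSeq table the median was 17 per window. It was 22 for the 2733 genes at 10 FPKM or more, and 4 for the 2938 genes with 0 reads in every library. Of 40 genes for plasma proteins secreted by hepatocytes, 27 had a window, with a median of 3, and the 20 of 31 liver cytochrome P450 and conjugation genes with a window had a median of 1. The 17 of 28 epithelial junction genes with a window had a median of 18.5, although most of the 28 were also below 1 FPKM. Of these 28, 8 (28.6%) were near silent, against 87.5% of the plasma protein genes, so the lists also differ in level. The CG content of the low junction genes alone was not taken. DNA methylation was not measured.

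Replicate 3 stood apart from the others. Replicates 1 and 2 correlated at 0.994 across the 10151 expressed genes (Pearson, log2(FPKM + 0.5); genes are not independent replicates), and each correlated with replicate 3 at 0.910 and 0.909. The deviation followed base composition: in the decile of expressed genes lowest in GC, replicate 3 lay 0.94 below the mean of the other libraries on the log2 scale, and in the decile highest in GC it lay 1.52 above. Replicate 2 minus replicate 1 stayed between -0.015 and 0.033 over the same deciles. Replicate 3 also had a summed FPKM of 636608, against 315405 and 309444, from 20663908 reads against 25173559 and 21864034. With the libraries scaled to equal sums, the same differences ran from -1.97 in the decile lowest in GC to 0.57 in the highest, so a gene of equal deposited FPKM in all libraries has a lower share in replicate 3. For this reason every level is given in each library. Taken by decile, the values of replicate 3 moved with the GC content of the genes and the scale of the library. The part of either in any single gene was not tested. FTL, at 56.3% GC, lay 3.65-fold above the other libraries in replicate 3, against a median of 1.76-fold in its decile (53.9% to 56.9% GC). Within 1.2-fold of each other were 91.8% of expressed genes between replicates 1 and 2, and 15.9% between replicates 1 and 3. The median coefficient of variation was 37.0% over 3 libraries and 3.58% over replicates 1 and 2.

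**Figure D1:**
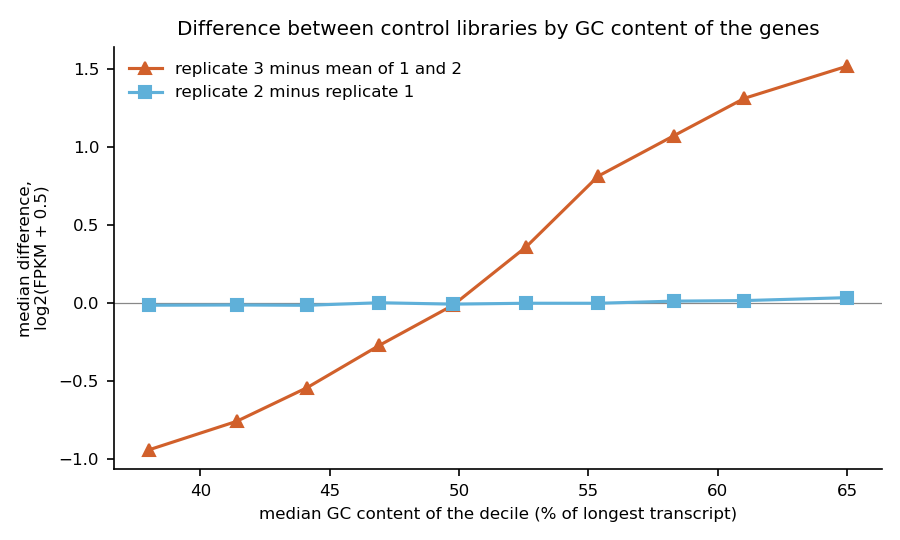
Median difference in log2(FPKM + 0.5) between control libraries (vertical axis) against median GC content in percent of the longest transcript (horizontal axis), for deciles of the expressed genes. Replicate 3 minus the mean of the other libraries runs from -0.94 to 1.52, and replicate 2 minus replicate 1 stays near 0.

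Of 58302 genes in the files, 10151 were expressed, of which 8545 were at 1 FPKM or more in every library, and 32290 had 0 reads in all libraries. Among the 19847 protein-coding genes 44.6% were expressed, 17.2% were well expressed and 37.2% were near silent. These shares are the background against which each gene list below is read. Expressed genes of all kinds numbered 10179, 10233 and 9580 in the separate libraries.

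The output was concentrated in few genes. The 25 most abundant protein-coding genes carried 30.5%, 29.4% and 29.4% of summed FPKM, and 22 of them were among the leading 25 of every library. By reads, which are not divided by length, the same genes carried 12.7%, 12.2% and 14.2%. Between 97 and 130 genes made up 50% of summed FPKM. Most of the leading genes were mitochondrial messenger RNAs, ribosomal proteins, iron and metal storage proteins, or small cytoskeletal and calcium-binding proteins. GAPDH, the glycolytic enzyme, was also among them at 2408, 2385.5 and 7104 FPKM.

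FTL, the ferritin light chain that with FTH1 forms the cell's iron store, ranked first in every library at 12219.8, 11964.5 and 44152 FPKM, a mean of 22779 ± 18510.2 (SD, n = 3). Replicate 3 lay 3.65-fold above the other libraries. As a share, the FTL level was 38743, 38665 and 69355 parts when each library is scaled to a total of 1e6 FPKM. Replicate 3 was still the highest. Such scaling cannot change the rank of a gene within a library. FTH1 read 658, 607 and 1190.1 FPKM. Of its exonic bases 62.4% overlap other annotated genes, and how reads were shared is not given, so its level is uncertain. Metal storage was high as well, with the metallothionein MT2A at 1255, 1160.3 and 3455 FPKM and MT1E at 257.5, 236 and 467. Both ferritins together made up 4.08%, 4.06% and 7.12% of summed FPKM. The iron uptake receptor TFRC was far lower, at 9.57, 9.62 and 4.11 FPKM, and the iron exporter SLC40A1 was at 0.463, 0.321 and 0.194.

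The 13 mitochondrial messenger RNAs made up 19.4%, 18.2% and 12.3% of summed FPKM. Subunits of cytochrome c oxidase led them: MT-CO2 read 10316, 9395 and 15246 FPKM. MT-CO3 read 11126.5, 10764 and 12416 FPKM. MT-CO1, at 10493, 9894 and 9627.5, had nearly the same FPKM in all libraries, although the summed FPKM of replicate 3 was the highest, so its share was lowest there. The 101 cytosolic ribosomal protein genes made up 11.5%, 11.5% and 12.3%. RPS2 had the highest mean, at 2172, 2130.1 and 7870.1 FPKM, but in replicates 1 and 2 RPL41 was above it, at 2470.2, 2293 and 3461. Ribosomal protein genes have many near-identical pseudogenes, and how the authors' counting shared reads among copies is not given, so their single levels are uncertain.

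The abundant cytoskeletal genes were TMSB10, a thymosin that binds monomeric actin, at 4616, 4471 and 8672 FPKM, and PFN1, profilin, at 1212, 1202 and 3369. ACTB, the actin itself, read 1168, 1104 and 2520.5 FPKM. Among the calcium-binding S100 proteins, S100A6 read 1584, 1542 and 4345 and S100A11 1003, 982 and 3305. LGALS1, a secreted galectin, read 1383, 1412 and 5836 FPKM, with replicate 3 far above the others. HMGA1, an architectural chromatin protein of embryonic and tumour cells, was the leading nuclear regulator at 1178, 1153 and 3599 FPKM.

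**Figure D2:**
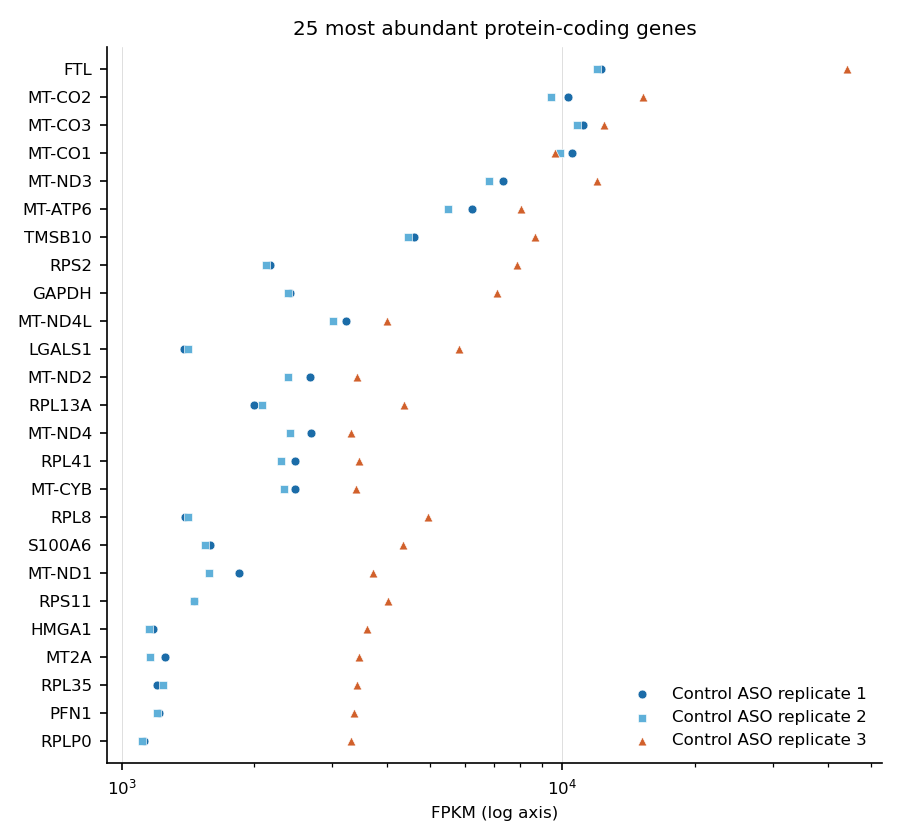
FPKM on a log axis for the 25 protein-coding genes with the highest mean, in order of the mean, with a point for each of the 3 control libraries. Replicates 1 and 2 nearly coincide, and replicate 3 is the highest point for every gene shown except MT-CO1, which read 10493, 9894 and 9627.5 FPKM.

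The hepatocyte programme was near silent. Of 40 secreted plasma protein genes, 35 were under 0.1 FPKM, 17 had 0 reads and 4 were at 1 FPKM or more. Those with 0 reads included TF (transferrin), FGA, FGB and FGG (the fibrinogen chains) and APOB (the core protein of low density lipoprotein). LCAT, the plasma enzyme that esterifies cholesterol, was the highest by mean at 2.64, 2.79 and 9.31 FPKM. F10, coagulation factor X, read 2.78, 2.49 and 4.28. SERPINA1, alpha-1 antitrypsin, read 1.55, 2.01 and 3.19 FPKM. VTN, vitronectin, reached 1 FPKM by mean only through replicate 3, at 0.921, 0.897 and 3.12. LCAT and F10 did not keep one order over the libraries, whereas F10 was above SERPINA1 in all 3. Of the 35 near-silent members, 14, 11 and 7 had any read in the separate libraries, with 52, 48 and 44 reads between them.

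Drug metabolism and bile handling showed the same picture. Of 31 cytochrome P450 and conjugation genes, 23 had 0 reads, among them CYP3A4, the main drug-oxidising enzyme of liver, and CYP7A1, the rate-limiting enzyme of bile acid synthesis. POR, the electron donor shared by all microsomal cytochromes and present in most cells, was the exception at 13.7, 14.02 and 36.4 FPKM. CYP27A1, a mitochondrial sterol hydroxylase, read 0.86, 0.843 and 1.69. Of 21 bile acid and organic ion transporters 4 were at 1 FPKM or more: ABCC1 at 7.56, 7.54 and 12.3 FPKM, ABCC2 at 8.94, 8.83 and 5.0, SLC27A5 at 2.65, 2.73 and 7.15 and ABCC4 at 2.05, 2.27 and 0.87. ABCB11, the bile salt export pump, had 0 reads. ABCC2 is the canalicular exporter of conjugated bilirubin, and it was the highest of the transporters in replicates 1 and 2, while ABCC1, the general exporter, was the highest in replicate 3.

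In nitrogen and glucose metabolism 8 of 24 genes were at 1 FPKM or more and 15 were near silent. CPS1, the entry enzyme of the urea cycle, read 0.0756, 0.0935 and 0.0293 FPKM, and OTC, the next enzyme, had 0 reads. ASL and ASS1, urea cycle enzymes that many tissues use to make arginine, read 11.8, 11.1 and 33.2 FPKM for ASL and 1.61, 1.29 and 2.43 for ASS1. NAGS, which makes the activator of CPS1, had the highest mean of the list at 13.3, 14.1 and 36.2, but PYGL, liver glycogen phosphorylase, was above it in replicates 1 and 2, at 21.2, 21.96 and 17.2 FPKM. G6PC and PCK1, the enzymes of glucose release, had 0 reads, while PCK2, the mitochondrial form, read 11.1, 11.2 and 30.2 FPKM.

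Of 28 liver transcription factors, 11 (39.3%) were at 1 FPKM or more and 13 (46.4%) near silent, against 44.6% and 37.2% of all protein-coding genes. CEBPB, the C/EBP form induced by stress and cytokines, led at 59.7, 62.1 and 147 FPKM, whereas CEBPA, the form of the mature hepatocyte, read 0.762, 0.728 and 2.76. FOXA2 and the bile acid and drug sensors NR0B2 and NR1I2 had 0 reads. HHEX and GATA4, factors of early liver formation, were at 13.3, 11.8 and 10.2 FPKM for HHEX and 8.98, 9.28 and 17.1 for GATA4. XBP1, the factor of the secretory stress response, read 19.6, 19.3 and 19.7 FPKM, which is 62.03, 62.3 and 30.99 parts of 1e6 summed FPKM.

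Fetal genes were split. Of 19 oncofetal liver cancer genes, 8 (42.1%) were at 1 FPKM or more, 4 of them at 10 or more, and 9 (47.4%) were near silent. Over all protein-coding genes 44.6% were at 1 FPKM or more and 37.2% near silent, so these counts alone do not set the list apart. The silent side held the clinical markers: GPC3, the surface glypican of hepatocellular carcinoma, had 0 reads, as did LIN28B and the imprinted RNA H19, and IGF2 read 0.294, 0.258 and 0.549 FPKM. The expressed side held, after HMGA1, MDK, the secreted growth factor midkine, at 86.9, 87.8 and 249.6 FPKM. IGF2BP1, an RNA-binding protein of fetal tissue, read 12.8, 13.1 and 15.1, its relative IGF2BP2 10.6, 10.1 and 7.37, HMGA2 12.8, 12.7 and 6.74 and the retrotransposon-derived PEG10 9.98, 10.3 and 4.35.

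Of 24 genes of bile duct and progenitor cells 11 (45.8%) were at 1 FPKM or more, close to the 44.6% of all protein-coding genes, and 9 of 24 were at 10 or more, against 17.2% of all protein-coding genes. KRT19, the duct keratin, led at 395, 389 and 773 FPKM. ANPEP, a surface aminopeptidase of the bile canaliculus, was at 131, 135 and 340.0, and CD44, the hyaluronan receptor, at 95.8, 89.8 and 91.7. SOX9, the transcription factor of duct and progenitor cells, read 47.97, 49.1 and 48.96 FPKM, nearly equal on this scale, and 152, 159 and 76.9 parts of 1e6 summed FPKM. KRT7 read 18.4, 18.7 and 42.99 and the secreted matrix protein SPP1, osteopontin, 15.2, 15.7 and 9.55 FPKM. Other members of the same list were missing: EPCAM, the progenitor adhesion molecule, read 0.104, 0.0745 and 0.0303 FPKM from 8, 5 and 1 reads, and PROM1 and CFTR had 0 reads.

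**Figure D3:**
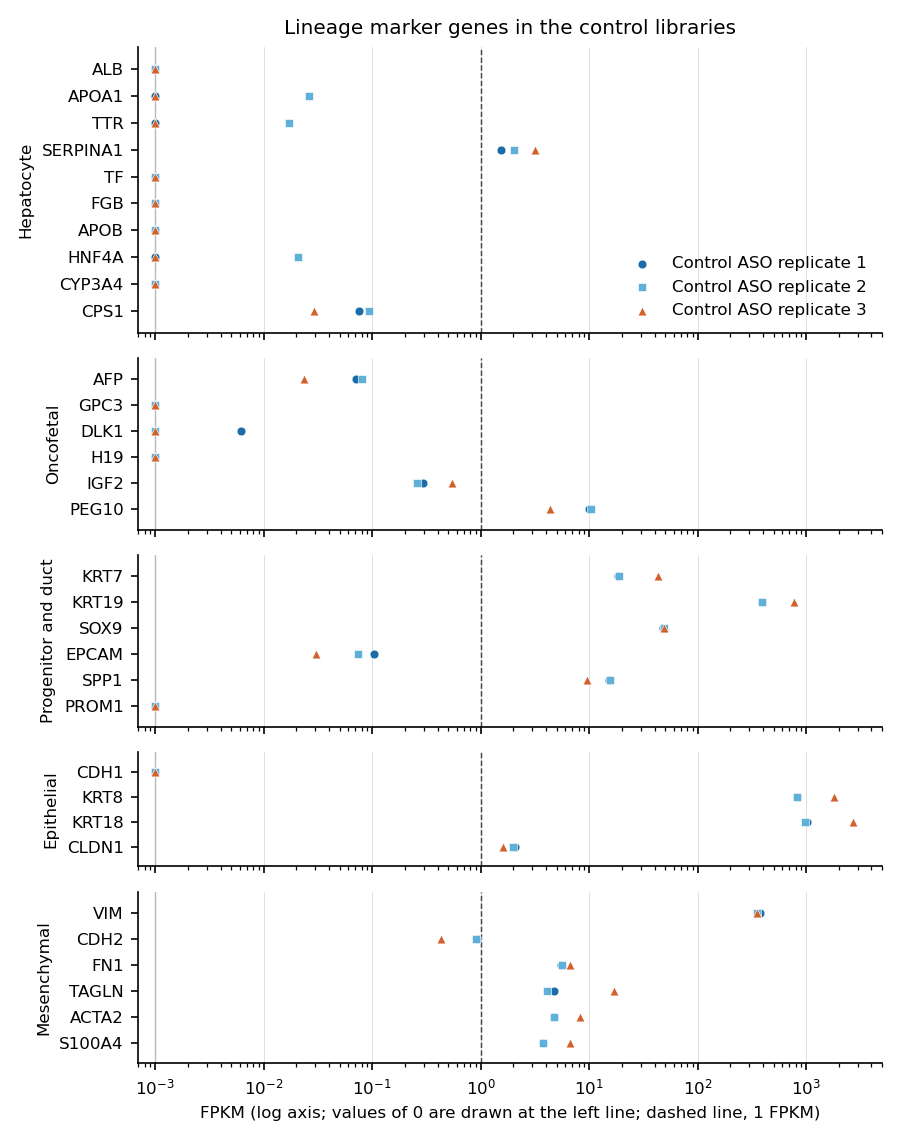
FPKM on a log axis for the marker genes of hepatocytes, fetal liver, progenitor and duct cells, epithelium and mesenchyme, with a point for each control library; values of 0 are drawn at the left line and the dashed line marks 1 FPKM. SERPINA1 was the only one of the 10 hepatocyte markers drawn to pass 1 FPKM in all libraries, while KRT8, KRT18, KRT19 and VIM lie above 300 FPKM.

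Keratins and cell junctions did not go together. Of 20 keratins 8 were well expressed: KRT18 read 1024, 974 and 2725 FPKM and KRT8, its filament partner, 818, 816 and 1819. Hair and stratified keratins were present at lower levels, with KRT81 at 41.1, 45.6 and 135, KRT34 at 23.1, 24.6 and 63.00 and KRT80 at 22.2, 22.8 and 52.8 FPKM, while KRT20 and KRT6A had 0 reads. Of 28 epithelial junction genes only 8 were at 1 FPKM or more. CDH1, E-cadherin, the adhesion molecule that defines epithelium, had 0 reads in every library, which allows up to 0.00692 FPKM, and ESRP1 and GRHL2, a splicing factor and a transcription factor of epithelial cells, also had 0. The desmosome protein PKP3 was the highest junction gene at 30.3, 33.5 and 109 FPKM, followed by CLDN7 at 10.1, 10.5 and 22.1 and JUP, plakoglobin, at 9.22, 8.99 and 21.8.

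Mesenchymal genes were mostly on. Of 30, 19 were at 1 FPKM or more and 12 at 10 or more, with a median of 5.56 FPKM against 0.609 for all protein-coding genes. VIM read 373, 356 and 352 FPKM and was 1.57 ± 0.70 below KRT8 on the log2 scale (SD, n = 3), lower in all 3 libraries. SPARC, a matrix glycoprotein, read 155, 157 and 139.6 FPKM. THBS1, thrombospondin, read 103.5, 105 and 102. Both were close over the libraries on this scale and lower in replicate 3 as parts of 1e6 summed FPKM, at 493, 506 and 219 for SPARC and 328, 338 and 161 for THBS1. CDH2, N-cadherin, was below 1 FPKM at 0.923, 0.903 and 0.432, so neither classical cadherin was well expressed, although CDH2 exceeded CDH1 in every library. FN1, fibronectin, read 5.53, 5.62 and 6.63 FPKM, and CDH11 and FAP, genes of fibroblasts, had 0 reads.

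Of 14 transcription factors tied to the epithelial to mesenchymal transition, 8 were at 1 FPKM or more, but SOX9, which the list shares with the progenitor genes, was the only one at 10. SNAI2 read 8.44, 7.17 and 4.54 FPKM, FOXC1 5.5, 5.83 and 5.14 and TWIST1 5.74, 6.65 and 3.65, and these 3 did not keep one order. SNAI1 and the ZEB factors were low: SNAI1 read 0.293, 0.379 and 1.22 FPKM, ZEB1 0.642, 0.443 and 0.194 and ZEB2 0.758, 0.766 and 0.294.

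Of 25 genes that promote or restrain metastasis, 23 were at 1 FPKM or more and 16 at 10 or more, with a median of 23.4 FPKM; many of them are abundant in most cells. Beside TMSB10, the actin regulators CFL1 and TMSB4X read 216, 207 and 569 FPKM for CFL1 and 306, 293 and 193 for TMSB4X. RHOA and RHOC, GTPases of cell movement, read 219, 212 and 246 FPKM for RHOA and 87.6, 87.4 and 285 for RHOC. The metastasis suppressor NME1 read 43.6, 42.01 and 68.7 FPKM and BRMS1 43.8, 43.6 and 154, both well above 10. PEBP1, on the same list, was higher than both in every library at 216, 210 and 269 FPKM. By mean, 17 members were at 5 FPKM or more, and KISS1, CD82, NME2, NDRG1, MTSS1 and MAP2K4 lay between 1 and 5.

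Of 29 matrix proteases, inhibitors and inducers 14 (48.3%) were at 1 FPKM or more, against 44.6% of all protein-coding genes. TIMP1, the inhibitor of metalloproteinases, read 204, 199 and 729.8 FPKM, TIMP3 137, 135 and 103 and TIMP2 42.5, 41.6 and 41.1. BSG, a surface glycoprotein that induces metalloproteinases, was second to TIMP1 in every library at 165, 161 and 486.5 FPKM. MMP14, the membrane-anchored collagenase, was the highest protease of its family at 46.99, 47.1 and 91.03. The gelatinase MMP9 read 0.971, 0.965 and 4.94 FPKM and MMP2 0.12, 0.0609 and 0.31, the collagenase MMP1 0.0334, 0.0381 and 0, and MMP7, MMP10 and MMP13 had 0 reads.

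Of 20 genes of the plasminogen system and the cathepsins, with their inhibitors, 14 were at 10 FPKM or more. PLAU, urokinase, read 65.8, 62.3 and 115 FPKM, its receptor PLAUR 17.5, 16.6 and 43.04 and the tissue activator PLAT 71.03, 71.7 and 64.7. ANXA2 and S100A10, the surface pair that binds plasminogen, read 144, 145 and 96.5 FPKM for ANXA2 and 270.1, 252 and 447 for S100A10. Lysosomal cathepsins were also high, with CTSB at 199.8, 203 and 413 and CTSD at 42.8, 37.9 and 153 FPKM. SERPINB5, maspin, had 0 reads.

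Among 23 integrins, the receptors for matrix, 10 (43.5%) were at 1 FPKM or more, close to the 44.6% of all protein-coding genes. ITGA3, a laminin receptor chain, led at 108, 109.7 and 252 FPKM in every library. The shared beta chain ITGB1 read 20.02, 19.7 and 6.86, ITGA6 23.5, 23.9 and 9.07 and ITGA5, the fibronectin receptor chain, 16.7, 16.7 and 41.7 FPKM. ITGA6 was above ITGA5 in replicates 1 and 2 and below it in replicate 3. Laminin chains LAMB3 and LAMC1, ligands of such receptors, read 37.4, 40.3 and 109 FPKM for LAMB3 and 25.1, 26.3 and 19.6 for LAMC1, within a list of 40 matrix genes of which 29 were at 1 FPKM or more.

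Across 166 surface receptors, a set that leaves out the integrins, 79 were at 1 FPKM or more and 24 at 10 or more. Over all protein-coding genes the shares at these levels were 44.6% and 17.2%. TNFRSF12A, the receptor for the cytokine TWEAK, was the highest in every library at 223, 220.4 and 969 FPKM. The same 5 genes filled the first 5 places of this set in each library. FZD2, a Wnt receptor, read 138, 142 and 392 FPKM. GPRC5A, an orphan receptor induced by retinoic acid, read 173, 168 and 321, above FZD2 in replicates 1 and 2 and below it in replicate 3. The ephrin receptor EPHA2 came next at 111, 117.5 and 269.9 FPKM. TNFRSF1A, the main receptor for tumour necrosis factor, took place 5 of the set in every library at 85.2, 83.4 and 198 FPKM. The integrin chain ITGA3, outside the set, was above it in every library.

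Of 46 receptor tyrosine kinases 19 (41.3%) were at 1 FPKM or more, close to the 44.6% of all protein-coding genes. AXL, the receptor for GAS6, followed EPHA2 at 70.9, 69.7 and 88.8 FPKM, and its ligand GAS6 was at 13.6, 13.8 and 33.7. EPHB4 read 19.2, 18.98 and 46.8 FPKM and ERBB2 11.6, 11.9 and 27.7. FGFR4, the hepatocyte receptor for FGF19, read 13.7, 14.5 and 46.2 and was higher in replicate 3. EGFR, at 12.01, 11.7 and 7.69 FPKM, was lower there. MET, the receptor for hepatocyte growth factor, was also lower there at 9.13, 8.83 and 3.64 FPKM, and its ligand HGF had 0 reads. KDR, the VEGF receptor of endothelium, FGFR2 and FLT3 had 0 reads.

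Of 29 cytokine and death receptors, 23 were at 1 FPKM or more (79.3%), and none had 0 reads in all libraries. LTBR, the lymphotoxin receptor, read 35.97, 35.9 and 100.3 FPKM, the TRAIL receptor TNFRSF10B 25.3, 26.2 and 29.99 and CD40 10.4, 10.03 and 17.9. Of 14 TGF-beta and BMP receptors 5 were at 1 FPKM or more, with the co-receptor ENG, endoglin, at 33.4, 31.7 and 94.8 FPKM. The signalling receptor TGFBR2 read 9.34, 9.52 and 4.77 FPKM and its partner TGFBR1 1.16, 1.1 and 0.402. The receptors of Hedgehog and Notch signals were led by SMO at 16.4, 16.9 and 42.3 and NOTCH2 at 17.2, 17.4 and 16.6. In the G protein-coupled list 15 of 36 (41.7%) were at 1 FPKM or more, close to the 44.6% of all protein-coding genes. After GPRC5A the highest by mean were the sphingosine receptor S1PR1 at 24.1, 24.7 and 22.02 and the adenosine receptor ADORA2B at 17.2, 17.1 and 22.2 FPKM. CXCR4, the chemokine receptor often studied in metastasis, read 0.103, 0.0338 and 0.275 FPKM, from 7, 2 and 8 reads.

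Receptors that mark hepatocytes were low. The asialoglycoprotein receptor genes ASGR1 and ASGR2, which clear plasma glycoproteins, read 0.342, 0.361 and 0.958 FPKM for ASGR1 and had 0 reads for ASGR2. SCARB1, the receptor for high density lipoprotein, was present at 14.4, 14.7 and 32.9 FPKM. Among 35 nuclear hormone receptors 18 (51.4%) were at 1 FPKM or more, against 44.6% of all protein-coding genes. They were led by NR1H2, the broadly expressed oxysterol receptor, at 45.6, 45.1 and 169 FPKM, NR2F6 at 40.4, 41.3 and 122 and RXRB at 34.3, 32.7 and 82.1. PGR had 0 reads.

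Among 146 genes for secreted growth factors, cytokines, binding proteins and matrix, 79 were at 1 FPKM or more and 37 at 10 or more. GDF15, a stress-induced hormone of the TGF-beta family, had the highest mean at 192, 199 and 793 FPKM but ranked 3, 2 and 1. HDGF, a growth factor first found in hepatoma medium, ranked first in replicates 1 and 2 at 216, 213 and 279.6 FPKM. CYR61, a matricellular protein, read 196, 196 and 137.5 and LGALS3BP, a galectin-binding glycoprotein, 168, 176 and 512 FPKM. The order among the leading secreted factors thus differed between replicate 3 and the others.

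Of 31 modulators of IGF and Wnt signals 13 (41.9%) were at 1 FPKM or more and 13 near silent, close to the shares of all protein-coding genes, and a few members were high. IGFBP6 and IGFBP4, which bind insulin-like growth factors, read 131, 136 and 321 FPKM for IGFBP6 and 99.6, 106 and 298 for IGFBP4. DKK1, the secreted Wnt inhibitor that has been used as a serum marker of hepatocellular carcinoma, read 177, 176 and 78.4, with replicate 3 the lowest library. SFRP1, another Wnt antagonist, read 80.8, 82.5 and 43.3, and the ligand WNT5B 50.5, 50.95 and 101 FPKM.

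Among angiogenic and growth signals, TGFB1 read 55.5, 56.6 and 161 FPKM, VEGFB 37.1, 32.9 and 94.5 and ANGPTL4 26.6, 28.5 and 128. VEGFA, the main angiogenic factor, was lower at 2.6, 2.56 and 1.93, below VEGFB in all libraries. CTGF read 38.6, 38.9 and 52.4, NRG1, a ligand of ERBB3, 15.96, 16.3 and 11.5 and HBEGF, an EGFR ligand, 5.23, 5.48 and 8.94 FPKM. IGF1, HGF, FGF21 and PTN had 0 reads. Of 33 chemokines and cytokines 15 (45.5%) were at 1 FPKM or more, close to the 44.6% of all protein-coding genes. EBI3, a subunit of IL-27 and IL-35, led at 36.9, 36.7 and 97.2 FPKM, followed by mean by LIF at 18.3, 18.8 and 40.8 and CXCL1 at 16.5, 16.98 and 18.8. CXCL8, interleukin 8, read 2.02, 1.67 and 1.18 and IL6 2.32, 2.65 and 1.88 FPKM.

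**Figure D4:**
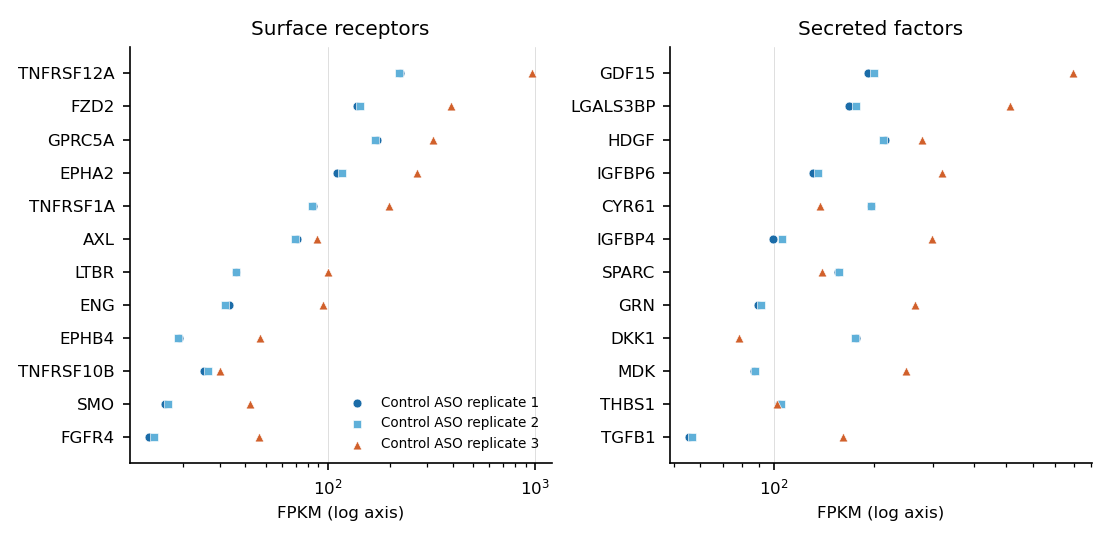
FPKM on a log axis for the 12 surface receptors (left, integrins not included) and the 12 secreted factors (right) with the highest mean over the 3 control libraries, with a point for each library. TNFRSF12A leads the receptors in every library, while the leading secreted factor is HDGF in replicates 1 and 2 and GDF15 in replicate 3.

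Metabolic isozymes were mostly of the non-liver type. Of 26 enzymes of non-liver type 25 were at 1 FPKM or more and 21 at 10 or more, with a median of 87.3 FPKM. Of 20 liver-type enzymes 5 were at 1 FPKM or more and 8 had 0 reads. PKM, the pyruvate kinase of muscle and tumours, read 306, 302 and 637 FPKM, and PKLR, the liver form, 0, 0.0143 and 0.0292. The difference was 9.56 ± 0.58 on the log2(FPKM + 0.5) scale (SD, n = 3). SLC2A1, the common glucose transporter, read 23.7, 25.04 and 56.3 FPKM and SLC2A2, the hepatocyte form, 0.115, 0.022 and 0. MAT2A exceeded MAT1A by 6.62 ± 0.11 (SD, n = 3) and PYGB, brain glycogen phosphorylase, exceeded the liver form PYGL by 2.33 ± 0.89. All 12 isozyme and marker pairs examined had the same order in all 3 libraries. PYGL was the liver-type enzyme that stayed well expressed, at 21.2, 21.96 and 17.2 FPKM, together with PFKL at 17.6, 17.4 and 50.6. No test was run on the pairs.

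**Figure D5:**
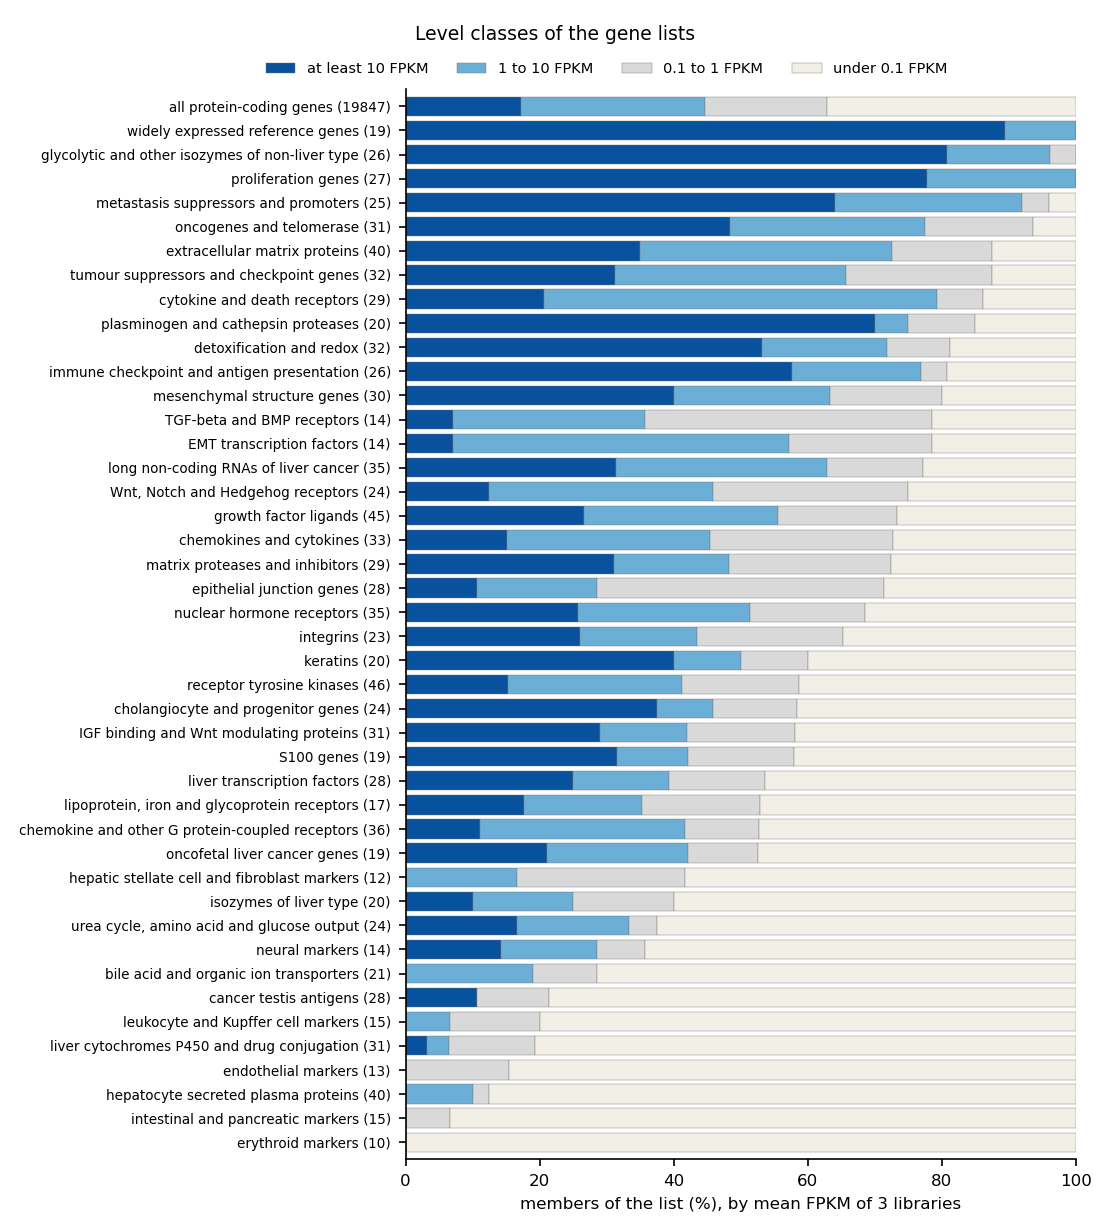
Share of each gene list, in percent of its matched members (number in brackets), by mean FPKM over the 3 control libraries: at least 10, 1 to 10, 0.1 to 1, and under 0.1. All protein-coding genes stand at the top as the background, with 44.6% at 1 FPKM or more; hepatocyte plasma protein genes reach 10% and non-liver isozymes 96.2%.

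Growth genes were on. All 27 proliferation genes were at 1 FPKM or more. The mitotic activator CDC20 read 204, 197 and 820.2 FPKM, thymidine kinase TK1 176, 172 and 601, and MKI67, the antigen used to grade proliferation, 9.22, 9.21 and 9.1. MKI67 was nearly equal on this scale, but as parts of 1e6 summed FPKM it read 29.2, 29.8 and 14.3. Among oncogenes, FOSL1, an AP-1 subunit, led at 278, 275 and 873 FPKM. CDK4 read 100.3, 102 and 281, and 43.2% of its exonic bases overlap other annotated genes. CCND1, cyclin D1, read 76.3, 75.95 and 80.9 and MYC 69.9, 71.5 and 54.8 FPKM. TERT, the telomerase subunit, read 1.18, 1.18 and 5.26.

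Among 32 tumour suppressor and checkpoint genes 21 were at 1 FPKM or more, and CDKN2A, CDKN2B and MTAP, neighbours on chromosome 9, had 0 reads in every library. For CDKN2A, the gene of the cell cycle inhibitor p16, this allows up to 0.00988 FPKM. CDKN1A, the inhibitor p21, read 216, 222 and 813 FPKM, the highest of the list. KEAP1 and BAP1 were at 22.6, 24.7 and 59.9 FPKM for KEAP1 and 32.7, 32.7 and 83.4 for BAP1. The cancer testis antigens were mostly silent, with 22 of 28 under 0.1 FPKM, and PRAME at 11.8, 11.5 and 14.9 FPKM.

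Redox genes were high, with 17 of 32 at 10 FPKM or more. GPX1, a glutathione peroxidase, read 292, 300.0 and 1594 FPKM and was among the 8 well expressed protein-coding genes that varied most over the libraries. GSTP1, the glutathione transferase that is low in normal hepatocytes, read 299.9, 293 and 1102, HMOX1, heme oxygenase, 116, 115 and 357, and TXNRD1, thioredoxin reductase, 155, 153 and 96.1 FPKM. AKR1B10 and AKR1C2, reductases under NRF2 control, had 0 reads.

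Of the long non-coding RNAs with names linked to liver cancer, 22 of 35 were at 1 FPKM or more. The background shares given above are of protein-coding genes and do not cover this list. SNHG19, a host of a small nucleolar RNA, led all long non-coding genes at 179, 197 and 529 FPKM. GAS5 read 43.3, 44.1 and 56.1. MALAT1, a nuclear RNA abundant in most cells, read 38.1, 38.2 and 7.28 FPKM and NEAT1, the scaffold of paraspeckles, 6.15, 6.85 and 0.856, both several-fold lower in replicate 3. HULC, an RNA first described in hepatocellular carcinoma, MEG3 and UCA1 had 0 reads.

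Markers of other cells were low, which bears on what the libraries could hold. All 10 erythroid markers were under 0.1 FPKM, as were 14 of 15 intestinal and pancreatic, 12 of 15 leukocyte, 11 of 13 endothelial and 7 of 12 stellate cell and fibroblast markers. The exceptions at 1 FPKM or more in these lists were COL3A1 at 5.58, 5.81 and 4.26 and RGS5 at 1.84, 1.57 and 0.851 FPKM among the fibroblast markers and CD14, also a gene of hepatocytes, at 2.61, 3.78 and 6.36 among the leukocyte markers. Of 14 neural markers 4 were at 1 FPKM or more, led by the ubiquitin hydrolase UCHL1 at 17.5, 14.8 and 26.6 FPKM and the enolase ENO2 at 10.97, 11.4 and 20.9, and STMN2 and GAP43 had 0 reads. PTPRC, the pan-leukocyte gene, read 0, 0 and 0.0365 FPKM and PECAM1, the endothelial adhesion gene, 0.0169, 0.00484 and 0. In bulk RNA, fewer cells of a type and less RNA per cell cannot be told apart.

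The genes whose level varied least and most were picked among 3418 well expressed protein-coding genes. On the deposited scale the steadiest included GTSE1, a G2 and S phase protein, at 19.4, 19.4 and 19.5 FPKM, TM4SF1, a surface tetraspanin-like protein of tumours, at 69.2, 68.3 and 68.3, and HK1, the common hexokinase, at 19.1, 19.2 and 18.9. With the libraries scaled to equal sums of 1e6 they were not steady: GTSE1 read 61.4, 62.8 and 30.7 parts, TM4SF1 219, 221 and 107 and HK1 60.7, 62.1 and 29.6, each lowest in replicate 3. The most variable included the core histone gene HIST1H3B at 6.8, 6.49 and 55.2 FPKM, CHAC1, a stress-induced glutathione-degrading enzyme, at 10.3, 8.89 and 51.3, and the cardiac homeobox gene NKX2-5 at 6.41, 5.88 and 35.2. In each of the latter, replicate 3 alone was high, also with the libraries scaled to equal sums, where HIST1H3B read 21.6, 20.96 and 86.7, CHAC1 32.6, 28.7 and 80.6 and NKX2-5 20.3, 19.01 and 55.2 parts of 1e6. On the deposited scale 1808 of the 3418 genes were more than 2-fold higher in replicate 3 than in the other libraries and 102 more than 2-fold lower. With equal sums the balance turned, with 116 more than 2-fold higher and 701 more than 2-fold lower.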

How the data were processed

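RNA of the cells was extracted with Trizol, and 1 µg went into Illumina TruSeq RNA libraries, per the labels' protocols. The values deposited by the authors are FPKM per gene and library. The submitters' processing notes list TopHat2 2.0.9, Bowtie2 2.0.6 and hg19 without saying what each was used for. How genes were counted, on which annotation and strand, and how the values were scaled is not given in the sources used here, so genes that overlap others on either strand may share reads. Gene positions in the files matched GRCh38 (GENCODE 29) for 56647 of 58039 shared identifiers (97.6%), and coordinates are GRCh38.

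Within each library, all products of FPKM and gene length were whole-number multiples of the same quantity (100%, tolerance 0.01 reads), so whole reads were recovered: 25173559, 21864034 and 20663908. The implied library sizes, 30416028, 26628485 and 13089653, differ from these totals by factors of 1.21, 1.22 and 0.633, so the deposited scale is no plain division by reads. A level of 0 was given the limit of 3 reads over the 3 libraries.

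Python 3.11.15 with pandas 2.3.3, numpy 2.4.6 and statsmodels 0.14.6 was used, and read recovery and the coefficient of variation were tested on simulated data. Groups come from the sample titles. No test was made, since only 1 group is described. The replicates 1 and 2 differed by more than counting noise (median chi-square per gene 1.01, against 0.455 by counting alone) and were kept as separate libraries. GC content is that of the longest GENCODE 29 transcript, known for 99.8% of expressed genes. The members and lists (43 lists, and 5 gene families added after values were seen; 1120 genes, 3 not matched) were chosen with earlier results of these data known. Named genes were the 25 protein-coding and 10 long non-coding genes with the highest mean, the key genes and up to 6 further leading members of each list, the isozyme pairs, and the 8 most and 8 least variable protein-coding genes at 10 FPKM or more; further members are named for a role or for 0 reads. Counts of genes higher and lower in replicate 3 with equal sums were added after the data were seen. Alternatives were other thresholds and pseudocounts, libraries scaled to an equal sum of FPKM, shares of reads, removal of a GC trend (lowess, span 0.5), ranks by median and leaving out each library.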

Additional observations from a re-analysis of the deposited data

How the results depend on the processing

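No paired analysis was possible because only 1 group of libraries is described. Leaving out each library in turn gave 10054 to 10157 expressed genes (10151 with all), a share of 29.4% to 30.1% of summed FPKM for the leading 25 genes, 533 to 536 list members at 1 FPKM or more (539 with all) and 33019 to 34410 genes with 0 reads (32290 with all). All 12 pairs had the same order in all 3 libraries, so leaving a library out could not change it. The mean correlation, 0.938 with all libraries, ranged from 0.909 to 0.994, the last without replicate 3, and was 0.970 with the GC trend removed. Expressed genes numbered 5287 at a threshold of 5 FPKM, 12393 at 0.5 FPKM, 8545 when required in each library, and 26012 with any read. With libraries scaled to an equal sum of FPKM and the cutoff kept at 1 part, they numbered 13333. That common sum lies above the summed FPKM of every library (315405, 309444 and 636608), so 1 part is less than 1 FPKM. The rise from 10151 is therefore not separated from a lower threshold. The leading 25 genes held 13.03% of reads. Depth limits the genes with few reads: levels under about 0.1 FPKM rest on few reads or none in these libraries. Of 48 lists, 27 kept their count of expressed members within 1.5 times under all settings.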

Other observations

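Families and a region chosen after their values were seen add to this description. Of 13 HLA class II genes, which present antigen on immune cells, 8 were at 1 FPKM or more and 5 at 10 or more. HLA-DRA read 124, 115 and 90.3 FPKM. HLA-DRB1, at 31.9, 34.04 and 75.8, has near-identical copies and its level is uncertain. CD74, the invariant chain that escorts these proteins, is not counted in the family and read 149, 154 and 347 FPKM. CIITA, the master activator of this family, was at 4.06, 4.1 and 7.34 FPKM. HLA-DQB1 was near silent at 0.0335, 0.0459 and 0.14. The markers of leukocytes were low beside them, with PTPRC at 0, 0 and 0.0365 and the B cell gene MS4A1 at 0 reads.

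Of 39 HOX genes, which record position along the body axis, 17 (43.6%) were at 1 FPKM or more. This is close to the 44.6% of all protein-coding genes. HOXB7 read 47.1, 45.3 and 44.8 FPKM, and its annotated span overlaps other HOXB genes. HOXB9 read 22.8, 23.1 and 27.6, HOXC10 16.5, 14.98 and 18.8 and HOXC13 15.2, 15.7 and 17.6 FPKM. Of the 6 GATA factors, GATA3 read 20.6, 20.95 and 18.6 FPKM beside GATA4.

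The genes around CDKN2A were silent together. Between KLHL9, with 568, 475 and 227 reads, and TUSC1, with 1048, 940 and 778, lie 49 genes of all types on chromosome 9 (21335381 to 25676388, GRCh38; 4.34 megabases), of which 13 code for protein. These bounds are the nearest protein-coding genes with any read on either side of CDKN2A, so all 13 had 0 reads by that rule. Several of them are interferon alpha genes, and IFNA14 and IFNA5, beyond KLHL9, also had 0 reads. Among the 13 is MTAP, an enzyme that salvages methionine and is made by most cells. For MTAP this allows up to 0.00293 FPKM. Of the 49 genes, 47 had 0 reads, and the other 2, the processed pseudogenes CLIC4P1 and KHSRPP1, held 13 reads in all. Over all genes in the files 55.4% had 0 reads. Expression files do not show DNA copies, and a deletion was not tested.

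RPS28P7, a processed pseudogene of a ribosomal protein, read 3221, 2997.5 and 7817 FPKM, against 138, 133 and 437 for its parent RPS28; the copies are near-identical and how reads were assigned is not given. MIF read 1.16, 0.474 and 2.76 FPKM, and 61.9% of its exonic bases overlap other annotated genes.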
